A study of Caenorhabditis elegans with 14 samples.

Results

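The 107 rows described here are the piRNA precursors best seen in decapped RNA of wild-type Caenorhabditis elegans. They are the rows of the class pre-piRNA with 20 or more sense reads in the TDP2 library of the n2 control strain. Of the most abundant piRNA numbers 6 were set aside, which removed 2 rows over that threshold. The 107 were chosen among 1865 precursor rows with a sense read in control TDP2 and 5464 with one in any library. The control TDP2 counts made this choice, so they are given as a description only and nothing was tested against that library. A piRNA carries a piR-cel number in the tables, which list a precursor row and a mature row under it. Genome positions and sequences of the rows are not used here.

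In C. elegans most piRNAs begin as short capped transcripts of RNA polymerase II. The cap and the first nucleotides are taken off, the 3′ end is trimmed by PARN-1 and methylated by HENN-1, and the mature piRNA with its 5′ monophosphate is held by the Piwi protein PRG-1 in the germline. TOFU-6, PICS-1 (also called PID-3) and ERH-2 are subunits of the PICS complex, which is needed for maturation of the precursors, while its partner TOST-1 is tied to chromosome segregation.

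Small RNAs of 17 to 30 nucleotides came from whole, synchronised worms of the late young adult stage, kept at 20 °C with OP50 bacteria as food. In a TDP2 library the RNA was dephosphorylated and then decapped with the enzyme TDP2, so that capped RNA could be cloned; an untreated library takes up RNA with a 5′ monophosphate. With TDP2 there was 1 library each of erh-2(ust101), pics-1(tm2417), prg-1(n4503), the control strain n2 and 4 alleles of tofu-6, namely yt2, ust95, ust94 and it20. Untreated libraries, again 1 each, came from erh-2(ust101), pics-1(tm2417), tofu-6(ust94), tost-1(ust103), prg-1(n4503) and n2; a TDP2 library of tost-1 is not analysed here. The labels name no further allele or agent in any strain and do not say that libraries were separate cultures. Only tofu-6 with TDP2 had replicates, and those are different alleles, so a p-value here measures spread among these libraries and nothing more.

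Assigned reads per library ran between 6918136 and 13469619, and RPM means reads per 1000000 assigned reads. Structural RNA took 40.8% to 64.5%. All 8 germline markers, glh-1 and pgl-1 among them, were read in every library, and with TDP2 they summed to 424 RPM in erh-2, 313 in pics-1, 355, 314, 475 and 402 in the yt2, ust95, ust94 and it20 alleles of tofu-6, 192 in prg-1 and 218 in control. The oocyte markers summed to between 741 and 1237 RPM in the complex mutants, 391 RPM in prg-1 and 481 in control. The 38 sperm markers, mostly major sperm protein genes, summed to 3.56 RPM in erh-2, 7.44 in pics-1, 10.3, 136, 15.4 and 11.8 in the yt2, ust95, ust94 and it20 alleles of tofu-6, 255 in prg-1 and 129 in control. In whole worms, fewer cells of a type and less RNA per cell cannot be told apart. How reads matching several piRNA rows were shared is not stated, and a precursor row may hold reads of an overlapping gene. No pair of members had an equal count of 10 or more in over 2 of the 8 TDP2 libraries.

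In control TDP2 the members had between 20 and 1066 reads with a median of 42, and 29 had 100 or more. Just inside the threshold lay pre_piR-cel-1087, pre_piR-cel-15714 and pre_piR-cel-15895 with 20 reads each, and just outside it pre_piR-cel-294, pre_piR-cel-516 and pre_piR-cel-5303 with 19 each. Of the members 80 (74.8%) had a number above 15365, against 809 of the 1758 other precursor rows read in control TDP2 (46.02%). That split was set after seeing the data, at the number of piRNA locus entries the tables list apart. Mature reads of untreated control lay mostly on the other side of it. In untreated control, mature rows of the 80 members above 15365 had 70 reads with 11 rows read, and those of the 27 members up to it had 504 reads with 21 rows read. In control TDP2 the precursor reads were 9442 for the 80 and 2079 for the 27, and the mature reads were 610 and 578. Most members were thus precursors whose own mature row was hardly read in untreated control.

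With TDP2 all 107 members were read in pics-1, the yt2, ust95 and it20 alleles of tofu-6 and the control, 106 in erh-2, 105 in tofu-6(ust94) and 91 in prg-1. Their summed level was 1168 RPM in erh-2, 2267 in pics-1, 1636, 1841, 968 and 1853 in the yt2, ust95, ust94 and it20 alleles of tofu-6, 1105 in prg-1 and 1237 in control; the mean of the 4 alleles was 1574 ± 416 RPM (SD, n = 4). Relative to prg-1 this made 1.06 in erh-2, 2.05 in pics-1 and 1.43 for the mean of the alleles, with ust94 below prg-1. Per microRNA read the same ratios were 1.98 in erh-2, 0.828 in pics-1 and 0.889 in tofu-6, so the last pair turned round. MicroRNAs took 0.8099% in erh-2, 3.75 in pics-1, 3.02, 4.102, 2.06 and 1.63 in the yt2, ust95, ust94 and it20 alleles of tofu-6, 1.51 in prg-1 and 8.35 in control, and their part in these levels was not tested.

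**Figure D1:**
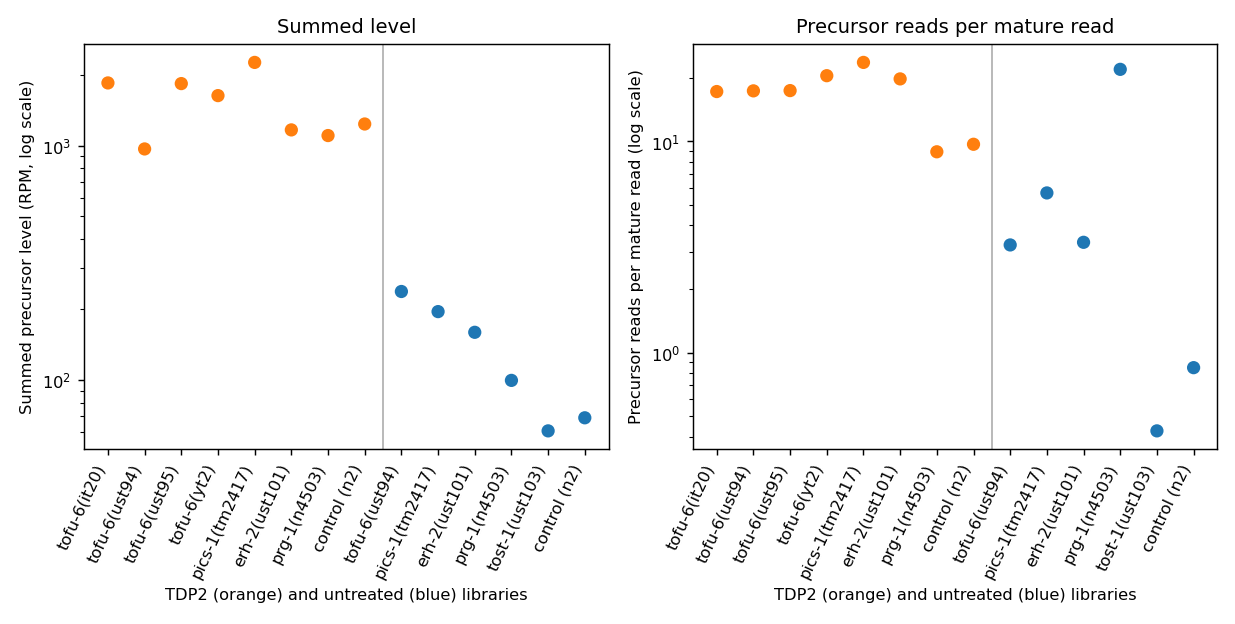
Left, summed RPM of the 107 precursor rows in each library (log axis); right, their precursor reads per read of the mature rows of the same numbers (log axis). Each point is 1 library; TDP2 libraries (orange) lie at 968 RPM or more and untreated libraries (blue) at 238 RPM or less.

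A few rows carried much of each sum, and they differed between libraries. The 5 rows with most reads held 34.4% of member reads in erh-2, 49.6 in pics-1, 49.4, 50.4, 39.96 and 31.4 in the yt2, ust95, ust94 and it20 alleles of tofu-6, 40.3 in prg-1 and 32.7 in control. The row pre_piR-cel-24606 had 3.04 RPM in erh-2, 19.3 in pics-1, 13.5, 428, 46.8 and 7.39 in the yt2, ust95, ust94 and it20 alleles of tofu-6, 6.11 in prg-1 and 12.4 in control. A single allele, ust95, stood above all other libraries there, and the row made up 23.3% of its member reads. Elsewhere yt2 and pics-1 were the high libraries: pre_piR-cel-22449 had 6.61 RPM in erh-2, 449 in pics-1, 357, 43.1, 24.4 and 20.9 in the yt2, ust95, ust94 and it20 alleles of tofu-6, 0.231 in prg-1 and 41.5 in control. The row pre_piR-cel-25884 had 21.8 RPM in erh-2, 117 in pics-1, 104, 40.4, 10.5 and 77.4 in the yt2, ust95, ust94 and it20 alleles of tofu-6, 18.1 in prg-1 and 40.6 in control, again highest in pics-1 and yt2.

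Other abundant rows had another order. For pre_piR-cel-16862 the levels were 121 RPM in erh-2, 18.5 in pics-1, 21.6, 132, 133 and 63.03 in the yt2, ust95, ust94 and it20 alleles of tofu-6, 86.4 in prg-1 and 16.4 in control, so erh-2, ust95, ust94 and prg-1 were high and pics-1, yt2 and control low. For pre_piR-cel-16552 they were 111 RPM in erh-2, 65.5 in pics-1, 41.2, 84.9, 111 and 161 in the yt2, ust95, ust94 and it20 alleles of tofu-6, 117 in prg-1 and 31.6 in control, with control below every mutant. Across the 107 rows, which share libraries and depth, the rank correlation of counts was 0.88 between pics-1 and tofu-6(yt2), 0.85 between erh-2 and tofu-6(it20) and 0.22 between pics-1 and prg-1; these are descriptions.

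Among the 30 members with most reads in the tofu-6 alleles, pre_piR-cel-24606, pre_piR-cel-19509 and pre_piR-cel-15797 varied most, with an SD of log2(RPM + 0.5) over the 4 alleles of 2.55, 2.27 and 2.17. The least variable were pre_piR-cel-17182, pre_piR-cel-24973 and pre_piR-cel-18512, at 0.63, 0.64 and 0.64. A row of the steady kind, pre_piR-cel-24973, had 47.2 RPM in erh-2, 43.1 in pics-1, 27.8, 43.7, 34.4 and 78.8 in the yt2, ust95, ust94 and it20 alleles of tofu-6, 42.8 in prg-1 and 33.5 in control. Every other library lay within the range of the alleles there. The row pre_piR-cel-18512 had 25.4 RPM in erh-2, 49.3 in pics-1, 40.7, 27.9, 47.7 and 82.6 in the yt2, ust95, ust94 and it20 alleles of tofu-6, 35.2 in prg-1 and 7.52 in control, with erh-2 and control below all 4 alleles.

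**Figure D2:**
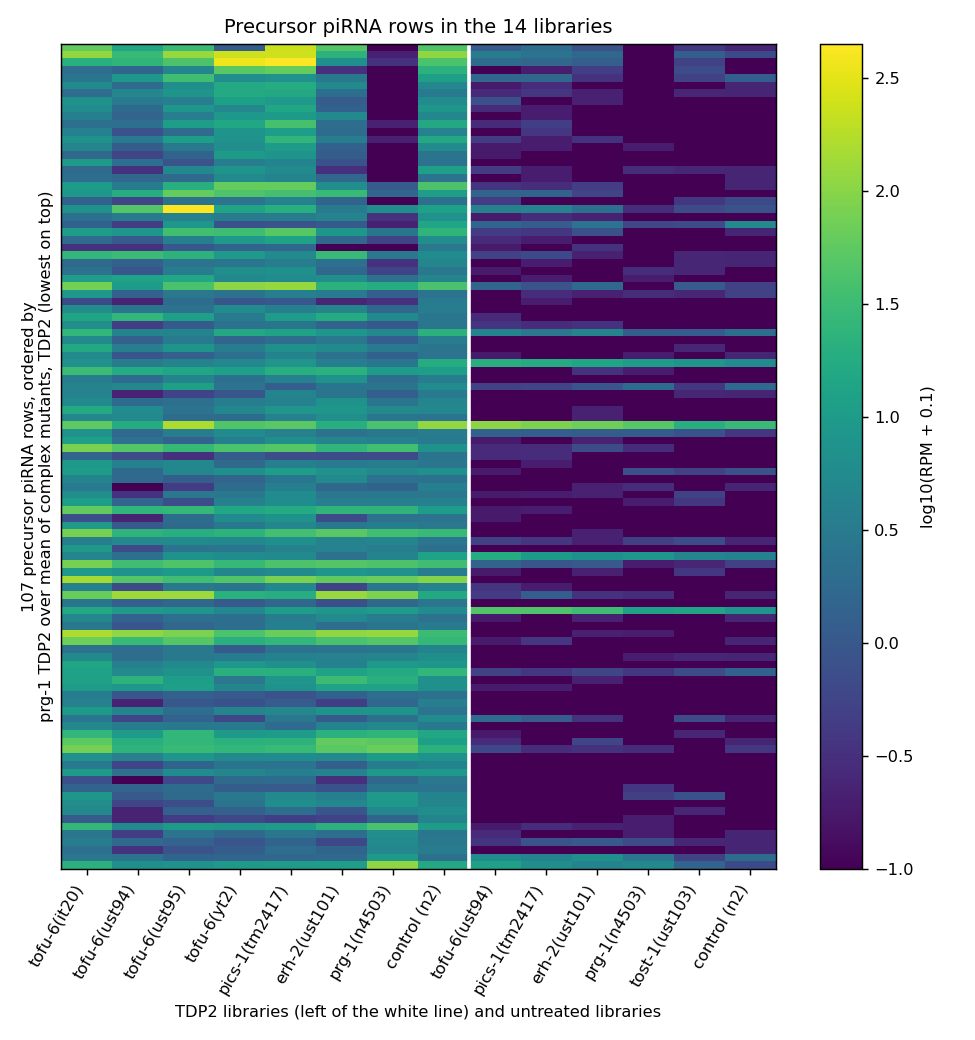
Level of each of the 107 precursor rows (rows of the map) in the 8 TDP2 libraries, left of the white line, and the 6 untreated libraries, as log10(RPM + 0.1). Rows at the top were lowest in prg-1 TDP2 relative to the complex mutants, and 16 rows had no read in it; the untreated side holds few bright rows.

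The change with TDP2 was examined in the 4 mutant strains that had both kinds of library, erh-2, pics-1, tofu-6(ust94) and prg-1, with strain as a block. The members were chosen by reads in a TDP2 library, which favours a rise here, so their counts and median are a description. Of 102 members tested 88 rose with TDP2 and 5 fell (edgeR, adjusted p under 0.05), where 40% of all 20353 features rose and 9.28% fell. Their median log2 change was 5.34, or 4.33 with the 25 rows without an untreated read put at their bound of 3 counts per library, beside 0.60 over all features. Those 25 rows passed the read filter through TDP2 alone, and 5 members did not pass it. The median member had 1 untreated read in pics-1 and tofu-6(ust94) and 0 in erh-2 and prg-1. Most members thus reached the filter's 10 reads in a library only with TDP2, which also favours a rise. Of the 9 tested without a call pre_piR-cel-15714 had a change of −1.19 ± 0.64 and pre_piR-cel-15748 one of 0.89 ± 0.72 (edgeR adjusted p = 0.15 and 0.334). The other precursor rows had 211 of 235 higher and 4 lower, with a median of 5.77, or 2.45 at the bound. Among snRNA genes, whose transcripts carry a cap, 56 of 82 were higher and 0 lower (edgeR; 56 passed an unadjusted p under 0.05, and DESeq2 called 55 higher and 0 lower). MicroRNA genes, with a 5′ monophosphate, had 9 of 146 higher and 108 lower. Protein-coding features on the antisense strand rose in 6409 of 7285 (87.98%), against 86.3% of members.

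**Figure D3:**
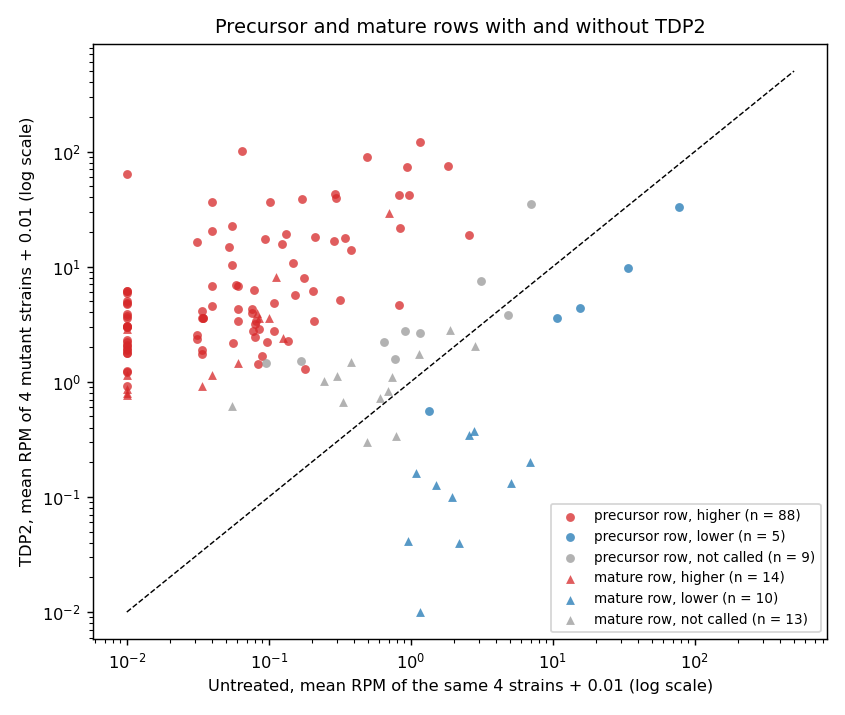
Mean RPM of 4 mutant strains with TDP2 (vertical) against the same strains untreated (horizontal), both plus 0.01 on log axes; circles are precursor rows and triangles mature rows of the same numbers. Of the precursor rows 88 were called higher (red) and 5 lower (blue); the dashed line marks equal levels.

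The row pre_piR-cel-18434 had 57.8, 81.9, 47.8 and 65.5 RPM with TDP2 in erh-2, pics-1, tofu-6(ust94) and prg-1, against no read in any of the 6 untreated libraries. It was at least 212-fold higher at a floor of 3 counts per library (edgeR adjusted p = 4.4e-05, higher in 4 of 4 pairs). Without an untreated read it passed the read filter through TDP2 alone, so it could be called in 1 direction only. The row pre_piR-cel-16552 had 111, 65.5, 111 and 117 RPM with TDP2 in erh-2, pics-1, tofu-6(ust94) and prg-1, against 0.1196, 0, 0 and 0.0985 RPM untreated, a ratio of 2106 (95% counting interval 583 to 17393), with 2 untreated reads in all (edgeR adjusted p = 3.4e-05). Every TDP2 library lay above every untreated one for both rows. Of the others with the largest fitted rises, pre_piR-cel-3398 was at least 20.5-fold and pre_piR-cel-23324 at least 20.7-fold higher. Both also had no untreated read, so the same limit holds for them, and in effect for the rows here with 1 or 2 untreated reads. With 1 untreated read each, pre_piR-cel-17142 had a ratio of 1572 (95% counting interval 282 to 62144) and pre_piR-cel-17933 one of 904 (95% counting interval 162 to 35739). These ratios pool reads over the 4 strains, and all intervals cover counting error only.

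The 5 rows that fell were pre_piR-cel-1430, pre_piR-cel-19604, pre_piR-cel-20235, pre_piR-cel-16873 and pre_piR-cel-22284, each lower in 4 of 4 pairs. The row pre_piR-cel-1430 had 20.3, 51.5, 18.4 and 40.6 RPM with TDP2 in erh-2, pics-1, tofu-6(ust94) and prg-1, against 69.1, 85.3, 103 and 50.5 RPM untreated (log2 change −1.74 ± 0.42 SE, edgeR adjusted p = 0.00507). In control, which was not in the fit, 4 of the 5 went the other way: pre_piR-cel-1430 had 114 RPM with TDP2 and 29.7 untreated, pre_piR-cel-20235 had 18.4 RPM with TDP2 and 5.66 untreated, pre_piR-cel-16873 had 12.996 RPM with TDP2 and 3.96 untreated and pre_piR-cel-22284 had 14.5 RPM with TDP2 and 5.52 untreated. There pre_piR-cel-19604 had 5.59 RPM with TDP2 and 8.06 untreated. With the control pair added to the fit 2 members were lower (edgeR). The control TDP2 counts chose the members, which favours high values in that library, so both results with control are a description. The row pre_piR-cel-19604 had 8.02, 10.8, 9.27 and 10.4 RPM with TDP2 in erh-2, pics-1, tofu-6(ust94) and prg-1, against 33.4, 44.1, 46.1 and 12.1 RPM untreated (−2.104 ± 0.42, edgeR adjusted p = 0.00178). TDP2 and untreated values of this row did not overlap, and prg-1 had the smallest gap. The changes of pre_piR-cel-20235, pre_piR-cel-16873 and pre_piR-cel-22284 were −2.35 ± 0.39, −1.997 ± 0.48 and −1.73 ± 0.64 (edgeR adjusted p = 0.000702, 0.00465 and 0.04). Scaled to microRNA reads all 5 turned positive without passing the test, and 97 members rose and 0 fell (edgeR). That scaling moved the median log2 change of all features by 2.82 and gave 18565 features higher and 215 lower, against 8144 and 1888. The microRNA share in these strains was 0.8099%, 3.75%, 2.06% and 1.51% with TDP2, against 9.09%, 10.4%, 13.5% and 6.05% untreated. In control it was 8.35% with TDP2 and 4.01% untreated. Its part in the 5 falls was not tested.

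Without TDP2 the members with a read were 49 in erh-2, 54 in pics-1, 60 in tofu-6(ust94), 39 in tost-1, 35 in prg-1 and 42 in control, of 107. In untreated control 65 members had none and 8 had 10 or more. The 5 rows with most reads held 81.5% of member reads in erh-2, 83.2 in pics-1, 83.7 in tofu-6(ust94), 77.6 in tost-1, 87.4 in prg-1 and 76.8 in control. In each of the 6 libraries pre_piR-cel-1430 led, with 69.1 RPM in erh-2, 85.3 in pics-1, 103 in tofu-6(ust94), 19.2 in tost-1, 50.5 in prg-1 and 29.7 in control. Tost-1 was lowest and below control here. The summed level of all members was 159.6 RPM in erh-2, 196 in pics-1, 238 in tofu-6(ust94), 60.6 in tost-1, 99.5 in prg-1 and 68.9 in control.

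As ratios to untreated control the sums came to 2.32 (2.09 to 2.58) in erh-2, 2.84 (2.57 to 3.14) in pics-1, 3.46 (3.14 to 3.82) in tofu-6(ust94), 0.879 (0.7699 to 1.004) in tost-1 and 1.44 (1.295 to 1.61) in prg-1, with 95% counting intervals. Each is 1 library against 1, with no replicate check. Without pre_piR-cel-1430, left out after its level was seen, they were 2.31 in erh-2, 2.82 in pics-1, 3.45 in tofu-6(ust94), 1.06 in tost-1 and 1.25 in prg-1. Per microRNA read they were 1.02 in erh-2, 1.0996 in pics-1, 1.03 in tofu-6(ust94), 0.898 in tost-1 and 0.958 in prg-1. Untreated microRNA shares were 9.09% in erh-2, 10.4 in pics-1, 13.5 in tofu-6(ust94), 3.93 in tost-1, 6.05 in prg-1 and 4.01 in control, and their part in these ratios was not tested. Untreated oocyte markers had 1272, 1404 and 1307 RPM in erh-2, pics-1 and tofu-6(ust94), 1259 in tost-1, 528 in prg-1 and 677 in control. Germline markers had 352, 391 and 412 RPM in erh-2, pics-1 and tofu-6(ust94), 360.2 in tost-1, 165 in prg-1 and 196 in control. Markers of the soma had 7175, 7741 and 7818 RPM in erh-2, pics-1 and tofu-6(ust94), 5590 in tost-1, 2878 in prg-1 and 3782 in control. Those sums were thus above control in the complex mutants and in tost-1, and below it in prg-1. Sperm markers went the other way, with 2.03, 3.51 and 10.1 RPM in erh-2, pics-1 and tofu-6(ust94), 3.18 in tost-1, 59.8 in prg-1 and 23.9 in control. The part of all these markers in the ratios was not tested either. For pre_piR-cel-19604 alone the ratios by RPM were 4.14 in erh-2, 5.46 in pics-1, 5.72 in tofu-6(ust94), 1.67 in tost-1 and 1.503 in prg-1. Among the 8 members with 10 or more reads in untreated control it was the highest in the complex mutants. Below control there were pre_piR-cel-22284, at 0.434 in erh-2, 0.189 in pics-1 and 0.262 in tofu-6(ust94), and pre_piR-cel-15877, at 0.493, 0.279 and 0.250 in the same order.

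Of the 107 numbers 93 had a mature row with a read. In untreated libraries these mature rows had 401 reads in erh-2, 362 in pics-1, 868 in tofu-6(ust94), 984 in tost-1, 46 in prg-1 and 574 in control. The ratios of their RPM to control were 0.591 (0.519 to 0.672) in erh-2, 0.422 (0.369 to 0.483) in pics-1, 0.908 (0.816 to 1.01) in tofu-6(ust94), 1.75 (1.58 to 1.95) in tost-1 and 0.0558 (0.0404 to 0.0754) in prg-1. Pics-1 and erh-2 were below control, tost-1 above it, and tofu-6(ust94) within counting error of it. All mature rows of the tables had 0.567 in erh-2, 0.299 in pics-1, 0.696 in tofu-6(ust94), 1.48 in tost-1 and 0.00589 in prg-1. Per microRNA read the rows of the member numbers stood at 0.261 in erh-2, 0.164 in pics-1, 0.2696 in tofu-6(ust94), 1.79 in tost-1 and 0.03702 in prg-1, which put tofu-6(ust94) well below control.

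Untreated control had its most reads at mature_piR-cel-2467, which had 6.22 RPM in erh-2, 4.26 in pics-1, 9.93 in tofu-6(ust94), 41.9 in tost-1, 0 in prg-1 and 26.4 in control. Without it, a choice made after seeing the data, the summed ratios were 0.762 in erh-2, 0.549 in pics-1, 1.17 in tofu-6(ust94), 1.83 in tost-1 and 0.0828 in prg-1. The next row, mature_piR-cel-715, had 8.49 RPM in erh-2, 4.64 in pics-1, 14.5 in tofu-6(ust94), 22.5 in tost-1, 0 in prg-1 and 11.9 in control; tofu-6(ust94) lay above control there, and erh-2 and pics-1 below it. In prg-1 neither row had a read.

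With TDP2 the mature rows went in both directions. Of 37 tested over the 4 mutant pairs 14 rose (37.8%) and 10 fell (27.0%) (edgeR, median log2 change 0.23). Over all features 40% rose and 9.28% fell, so the share that rose was near that of all features and the share that fell above it. Of the 37, 6 had no read in 1 kind of library and could be called in 1 direction only. Examples are mature_piR-cel-24606, without an untreated read in these strains, and mature_piR-cel-2818, without a read with TDP2. DESeq2 called 9 higher and 9 lower, microRNA scaling gave 24 and 4 (edgeR), and without the pics-1 pair 9 were higher and 7 lower. Mature rows of other numbers had 20 of 409 higher and 348 lower (median −4.69, or −4.10 at the bound). Rows chosen for most reads in untreated control, a choice that favours a fall, were lower with TDP2: mature_piR-cel-715 had 0.148, 0.126, 0.482 and 0 RPM with TDP2 in erh-2, pics-1, tofu-6(ust94) and prg-1, against 8.49, 4.64, 14.5 and 0 RPM untreated (−5.57 ± 0.67, edgeR adjusted p = 0.000275). In the 3 complex mutants each TDP2 value lay below each untreated one, and prg-1 had no read either way. The other 7 of the 8 mature rows with most reads in untreated control fell too, mature_piR-cel-2467, mature_piR-cel-3180, mature_piR-cel-32, mature_piR-cel-16548, mature_piR-cel-4510, mature_piR-cel-259 and mature_piR-cel-2818, by 3.49 to 6.73 on the log2 scale.

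Another 5 mature rows were chosen for having most reads in prg-1 TDP2, a library within the fit, so their changes favour a rise and are given as a description. The row mature_piR-cel-15879 had 15.7, 22.6, 4.46 and 74.7 RPM with TDP2 in erh-2, pics-1, tofu-6(ust94) and prg-1, against 0.239, 0.758, 1.104 and 0.6895 RPM untreated. Each TDP2 value lay above each untreated one (log2 change 4.41 ± 0.73). Among TDP2 libraries it had 15.7 RPM in erh-2, 22.6 in pics-1, 21.2, 10.1, 4.46 and 17.7 in the yt2, ust95, ust94 and it20 alleles of tofu-6, 74.7 in prg-1 and 31.04 in control, highest in prg-1, the library by which it was chosen. The log2 changes of mature_piR-cel-25155 and mature_piR-cel-17182 were 5.84 ± 0.73 and 5.102 ± 0.94. Those of mature_piR-cel-15877 and mature_piR-cel-15748 were 1.24 ± 0.68 and −0.17 ± 0.73. How reads were assigned between a precursor row and its mature row is not stated.

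Precursor reads per mature read over the member numbers were 19.8 in erh-2, 23.7 in pics-1, 20.5, 17.4, 17.4 and 17.2 in the yt2, ust95, ust94 and it20 alleles of tofu-6, 8.93 in prg-1 and 9.698 in control with TDP2 (mean of the alleles 18.1 ± 1.58, SD, n = 4). All complex mutants lay above prg-1 and control. The precursor reads of control TDP2 chose the members, so its values here are a description only. The prg-1 value rested on 1 number, since mature_piR-cel-15879 held 648 of its 1072 mature reads. Without the number with most mature reads in each library, a choice made after seeing the data, it was 26.6 in erh-2, 30.7 in pics-1, 20.9 for the mean of the alleles, 22.2 in prg-1 and 12.5 in control. Prg-1 then stood above control and above the mean of the alleles. Untreated, the measure was 3.33 in erh-2, 5.704 in pics-1, 3.24 in tofu-6(ust94), 0.426 in tost-1, 21.96 in prg-1 and 0.848 in control.

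The complex mutants were then compared with prg-1, which lacks the Piwi protein that holds the mature product, among the 7 mutant TDP2 libraries. In tofu-6 10 of the 107 members were higher and 2 lower than in prg-1 (edgeR, adjusted p under 0.05), where 3.83% of all 21799 features were higher and 0.628% lower, 4.46% in all. In pics-1 13 were higher and 0 lower, with 4.1% and 0.0917% of all features (4.19% in either direction), and in erh-2 3 were higher and 0 lower, with 2.5% and 0.124% (2.63% in either direction). At an unadjusted p under 0.05 the counts in either direction were 32 in tofu-6, 31 in pics-1 and 22 in erh-2. DESeq2 called 14 higher and 2 lower in tofu-6, 18 and 1 in pics-1, and 5 and 1 in erh-2. The median log2 change of the members was −0.39 in tofu-6, −0.07 in pics-1 and −0.13 in erh-2, beside 0.18, 0.18 and 0.17 over all features. Over the 375 other precursor rows tested it was −0.21 in tofu-6, 0.015 in pics-1 and 0.46 (0.35 at the bound) in erh-2. The comparisons share the 1 prg-1 library, and pics-1 and erh-2 are assumed to vary as the tofu-6 alleles do.

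These counts move with the scaling. With library totals instead of TMM factors 0 features passed in any of the 3 (edgeR), and the median log2 change of all features moved by 0.78 in tofu-6, 0.698 in pics-1 and 0.35 in erh-2. Scaled to microRNA reads it moved by 0.102 in tofu-6, −0.601 in pics-1 and 1.25 in erh-2, and in pics-1 727 features were higher and 103 lower, against 894 and 20. With DESeq2's size factors 2 members were higher and 1 lower in tofu-6, 10 higher in pics-1 and 0 in erh-2. Without the yt2 allele the members higher were 17 in tofu-6, 23 in pics-1 and 6 in erh-2, and those lower were 4, 1 and 1. Without ust95 1 was lower in tofu-6.

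The rows called higher were ones that prg-1 nearly lacked. In prg-1 TDP2 24 members had 3 or fewer reads, and 16 of them had none, so that these could differ in 1 direction only. The others had 1 or 2 reads there and reached the filter's 10 reads only through the complex mutants, which favours a call of higher as well. That is 22.4% of the members, beside 19.6% of all features tested. All 10 rows called higher in tofu-6, all 13 in pics-1 and all 3 in erh-2 were among the 24. The same share among all features called higher was not counted, so this cannot be read as a trait of the members. In erh-2 the 3 were 2.8% of the members, near the 2.5% of all features. Summed, the 24 rows had 117 RPM in erh-2, 1181 in pics-1, 782, 319, 107 and 264 in the yt2, ust95, ust94 and it20 alleles of tofu-6, 1.38 in prg-1 and 349 in control. The other 83 had 1051 RPM in erh-2, 1086 in pics-1, 854, 1522, 861 and 1589 in the yt2, ust95, ust94 and it20 alleles of tofu-6, 1103 in prg-1 and 888 in control, with prg-1 inside the range of the rest. The 24 were chosen by their prg-1 counts, so this is a description. Untreated they had 61 reads in erh-2, 112 in pics-1, 139 in tofu-6(ust94), 29 in tost-1, 8 in prg-1 and 61 in control. A mature read in untreated control was found for 4 of the 24 and 28 of the 83, and a number above 15365 for 19 and 61.

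**Figure D4:**
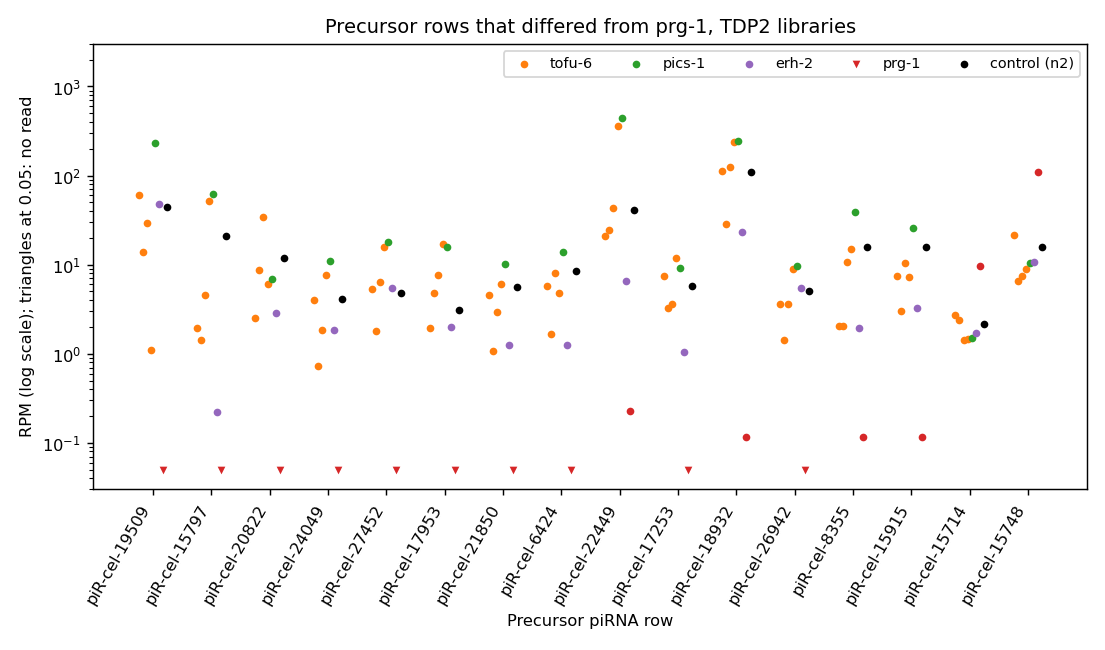
RPM (log axis) of each precursor row called against prg-1 in any of the 3 comparisons, in the 8 TDP2 libraries; each point is 1 library, and triangles at the bottom mark rows without a read. In 14 of the 16 rows prg-1 lies below all other libraries, and in pre_piR-cel-15714 and pre_piR-cel-15748 it lies above them.

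The rows pre_piR-cel-19509, pre_piR-cel-18932 and pre_piR-cel-26942 were called in all 3 comparisons. The row pre_piR-cel-19509 had 47.96 RPM in erh-2, 231 in pics-1, 1.104, 29.3, 13.7 and 60.1 in the yt2, ust95, ust94 and it20 alleles of tofu-6, 0 in prg-1 and 44.3 in control. At a floor of 3 counts it was at least 139-fold higher in erh-2, 668-fold in pics-1 and 75.3-fold in tofu-6 than in prg-1 (edgeR adjusted p = 0.0315, 0.00838 and 0.0347), though yt2 had 9 reads. Without a prg-1 read it passed the read filter through the complex mutants alone, as did the other rows with none there, so such a row could be called in 1 direction only. The same holds in effect for rows with 1 or 2 prg-1 reads, such as pre_piR-cel-18932, pre_piR-cel-22449 and pre_piR-cel-15915. The row pre_piR-cel-18932 had 23.01 RPM in erh-2, 245 in pics-1, 235, 124, 28.7 and 114 in the yt2, ust95, ust94 and it20 alleles of tofu-6, 0.115 in prg-1 and 109.8 in control. Every library of a complex mutant lay above prg-1, which had 1 read, and the ratio was 199.6 (95% counting interval 35.6 to 7908) in erh-2, 2126 (95% counting interval 381 to 84025) in pics-1 and 1082 (95% counting interval 194 to 42732) in tofu-6 (edgeR adjusted p = 0.03, 0.00478 and 0.00825). The row pre_piR-cel-26942 had 5.49 RPM in erh-2, 9.59 in pics-1, 8.83, 3.59, 1.45 and 3.64 in the yt2, ust95, ust94 and it20 alleles of tofu-6, 0 in prg-1 and 5.05 in control, at least 15.9-fold, 27.7-fold and 12.7-fold higher in erh-2, pics-1 and tofu-6 (edgeR adjusted p = 0.0439, 0.0208 and 0.0457).

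In both pics-1 and tofu-6 the rows pre_piR-cel-22449, pre_piR-cel-17953, pre_piR-cel-27452, pre_piR-cel-17253, pre_piR-cel-6424 and pre_piR-cel-15915 passed as well. Among them pre_piR-cel-27452 had 5.42 RPM in erh-2, 18.04 in pics-1, 15.9, 6.42, 1.81 and 5.35 in the yt2, ust95, ust94 and it20 alleles of tofu-6, 0 in prg-1 and 4.83 in control. It was at least 52.1-fold higher in pics-1 and 21.3-fold in tofu-6 (edgeR adjusted p = 0.0127 and 0.0312). For pre_piR-cel-22449, with 2 reads in prg-1, the ratio was 1945 (95% counting interval 538 to 16069) in pics-1 and 465 (95% counting interval 129 to 3841) in tofu-6, and its log2 change in erh-2 was 4.43 ± 1.94 (edgeR adjusted p = 0.339). Called in tofu-6 and not in the others, pre_piR-cel-20822 had 2.895 RPM in erh-2, 6.94 in pics-1, 6.13, 33.9, 8.79 and 2.503 in the yt2, ust95, ust94 and it20 alleles of tofu-6, 0 in prg-1 and 11.8 in control, at least 37.1-fold higher (edgeR adjusted p = 0.0298). Called in pics-1, pre_piR-cel-15797 had 0.223 RPM in erh-2, 61.8 in pics-1, 51.6, 4.57, 1.45 and 1.93 in the yt2, ust95, ust94 and it20 alleles of tofu-6, 0 in prg-1 and 21.2 in control, at least 179-fold higher (edgeR adjusted p = 0.0335). Differences between the complex mutants at these rows were not tested.

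The 2 rows lower in tofu-6 were high in prg-1. The row pre_piR-cel-15748 had 10.8 RPM in erh-2, 10.5 in pics-1, 8.95, 7.51, 6.503 and 21.7 in the yt2, ust95, ust94 and it20 alleles of tofu-6, 111 in prg-1 and 15.7 in control, with prg-1 above all other libraries (log2 change in tofu-6 −4.08 ± 0.76, edgeR adjusted p = 0.00821, lower in 4 of 4 alleles). In erh-2 and pics-1 its change was −3.72 ± 1.25 and −4.104 ± 1.27 (edgeR adjusted p = 0.156 and 0.08). The row pre_piR-cel-15714 had 1.71 RPM in erh-2, 1.51 in pics-1, 1.47, 1.42, 2.41 and 2.73 in the yt2, ust95, ust94 and it20 alleles of tofu-6, 9.69 in prg-1 and 2.15 in control (in tofu-6 −3.01 ± 0.78, edgeR adjusted p = 0.029, lower in 4 of 4 alleles). Sperm markers had 7 of 25 lower in tofu-6 than in prg-1, 2 in pics-1 and 5 in erh-2, with 0 higher (edgeR; 23, 21 and 22 at an unadjusted p under 0.05, and DESeq2 called 4, 9 and 10 lower and 0 higher). The part of sperm, oocyte and germline content in the comparisons with prg-1 was not tested. By RPM 35 members (32.7%) lay above prg-1 in all 6 libraries of complex mutants and 12 (11.2%) below it, beside 43.9% and 5.58% of all features.

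Genes of the piRNA pathway were read as a list that holds, among others, the precursor transcription factors prde-1 and snpc-4, the trimmer parn-1 and the methyltransferase henn-1. Of 23 tested on the sense strand 0 passed against prg-1 in tofu-6, pics-1 or erh-2 (edgeR; 0, 1 and 0 at an unadjusted p under 0.05, and 0 by DESeq2). Of 24 on the antisense strand 0 passed (edgeR; 3, 1 and 3 at an unadjusted p under 0.05, and 1 by DESeq2 in each). With TDP2 1 of the 23 rose and 2 fell on the sense strand, and 23 of the 24 rose on the antisense strand, where 87.98% of protein-coding antisense features rose and 40% of all features did.

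Antisense reads at the member rows also rose with TDP2, in 12 of 14 rows tested (85.7%) with 0 lower, near the share of protein-coding antisense features (edgeR; 12 at an unadjusted p under 0.05, and 11 higher and 0 lower by DESeq2). The median log2 change was 5.84, or 3.86 at the bound. Of the 14, 5 had no untreated antisense read in these strains, passed the read filter through TDP2 alone and could only be called higher. With TDP2 the antisense reads of the members summed to 1438 in erh-2, 11577 in pics-1, 3805, 2698, 1033 and 2557 in the yt2, ust95, ust94 and it20 alleles of tofu-6, 613 in prg-1 and 9000 in control. The row pre_piR-cel-15915 held 10640 of those in pics-1, 8480 of those in control and 3 of those in prg-1. Untreated it had 17 antisense reads in erh-2, 20 in pics-1, 37 in tofu-6(ust94) and 0 in tost-1, prg-1 and control. On its sense strand this row had 3.27 RPM in erh-2, 25.6 in pics-1, 7.36, 10.6, 3.01 and 7.51 in the yt2, ust95, ust94 and it20 alleles of tofu-6, 0.115 in prg-1 and 15.9 in control, and its ratio to prg-1, which had 1 read, was 222 (95% counting interval 39.4 to 8812) in pics-1 (edgeR adjusted p = 0.0106). Against prg-1 the 16 antisense rows tested had a median log2 change of −0.27 in tofu-6, 0.02 in pics-1 and 0.59 (0.37 at the bound) in erh-2. Over protein-coding antisense features it was −0.17, 0.84 and −0.97, and over all features 0.18, 0.18 and 0.17. Each rests on the 1 prg-1 library.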

How the data were processed

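For each of the 14 libraries the authors deposited whole-number read counts for transcripts and piRNA rows, sense and antisense. Reads were aligned with Bowtie2, per the submitters' processing notes; version, build, counter and treatment of multiple matches were not given in the sources used here. The deposited class sums were not used. Counts were summed by gene and strand. Members and lists were chosen with earlier results of these data known. Named rows are those with most reads, the largest called changes, the extreme spread between alleles, or a place at the threshold.

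edgeR 4.0.16 (quasi-likelihood, TMM) was fitted to features reaching 10 reads in some library and 30 in all, with two-sided p-values, Benjamini-Hochberg adjustment and a threshold of 0.05. TDP2 against untreated used 8 libraries, paired by the strain in the genotype label (20353 features, 3 residual degrees of freedom). Mutants were compared with prg-1 in 7 TDP2 libraries (21799 features, 3 residual degrees of freedom from the alleles of tofu-6). DESeq2 1.42.0, other scalings, filters and thresholds and leaving out libraries were tried as well. Ratios of single libraries carry exact 95% intervals. So do ratios of single rows, for which reads were pooled over the strains or, in tofu-6, over the alleles. The intervals leave out spread between strains or alleles. Assigned reads ran between 6918136 and 13469619 per library.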

Additional observations from a re-analysis of the deposited data

Results flagged for a closer look

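Of 34 sets of 4 tofu-6 TDP2 values, 8 held an allele far from the other alleles; chance gives this in about 1 in 20 unselected sets. Rows were named partly for many reads or a wide spread between alleles, pre_piR-cel-24606 and pre_piR-cel-15797 among them, so the count cannot be read against that rate. The high allele was yt2 for pre_piR-cel-22449 (357 RPM), pre_piR-cel-15797 (51.6 RPM) and the precursor reads per mature read (20.5). It was ust95 for pre_piR-cel-24606 (428 RPM) and pre_piR-cel-22284 (8.60 RPM). It was it20 for pre_piR-cel-18434 (143 RPM), pre_piR-cel-17142 (80.9 RPM) and pre_piR-cel-15748 (21.7 RPM).

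The summed level of the mature rows moved in opposite directions with TDP2 in different strains. The log2 ratio of TDP2 to untreated RPM was −0.40 in tofu-6(ust94), 0.30 in erh-2, 1.48 in pics-1, 4.77 in prg-1 and 0.65 in n2. Each is 1 library against 1, and the difference between strains was not tested.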

How the results depend on the processing

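With TDP2 against untreated, microRNA scaling gave 97 members higher and 0 lower and 18565 features higher and 215 lower; there pre_piR-cel-20235, pre_piR-cel-19604, pre_piR-cel-16873, pre_piR-cel-1430 and pre_piR-cel-22284 reversed to 0.48, 0.77, 0.81, 1.096 and 1.103. Total scaling gave 1019 features lower, and adding the control pair 2 members lower. Members at 10 or more control TDP2 reads numbered 202 (161 higher), and at 40 or more 61 (50 higher). Leaving out a strain gave 76 to 92 members higher and 4 to 5 lower, 6182 to 8056 features higher and 906 to 2416 lower. Without the strain block, that is without the pairing, 86 members were higher and 4 lower.

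For tofu-6 against prg-1, size factors gave 2 members higher and 1 lower (547 and 66 features), microRNA scaling 1 lower, no filter 17 higher (229 features lower), the control added 21 higher (1450 features), and thresholds of 10 and 40 reads 4 and 1 lower. Leaving out an allele gave 7 to 17 members higher, 1 to 4 lower, 695 to 1213 features higher and 98 to 476 lower. For pics-1, features lower were 7 with size factors, 103 with microRNA scaling, 78 without a filter, 68 with DESeq2 and 141 with the control; DESeq2 and the control each gave 1 member lower. Leaving out an allele gave 14 to 23 and 0 to 1 members and 811 to 1378 and 35 to 200 features. For erh-2, size factors gave 0 members (194 features higher, 2 lower), microRNA scaling 7 (903), no filter 111 features lower, DESeq2 5 members higher and 1 lower (112 features lower), the control 7 members (911 and 133 features), and a threshold of 10 reads 1 lower. Leaving out an allele gave 2 to 6 and 0 to 1 members and 461 to 905 and 35 to 268 features. Total scaling gave 0 calls in all 3. The causes were not tested.

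Of 401 values of single named rows under the alternatives 328 kept direction and side of the threshold, 68 lost the call and 5 reversed. The ratio of mature rows to control was 0.261 per microRNA read and 0.762 without mature_piR-cel-2467 in erh-2, 0.164 and 0.549 in pics-1, 0.270 and 1.17 in tofu-6(ust94), and 0.0370 and 0.0828 in prg-1. Precursor reads per mature read, without the top precursor, were 17.7 in erh-2, 19.2 in pics-1, 15.9 in tofu-6, 8.06 in prg-1 and 8.81 in control; without the top mature number 26.6, 30.7, 20.9, 22.2 and 12.5. At 10 or more reads they were 17.6 in erh-2, 15.2 in tofu-6 and 6.94 in control, and at 40 or more 21.1 in tofu-6 and 12.6 in control. Summed levels relative to prg-1 were 0.927 outside structural RNA and 1.98 per microRNA read in erh-2, 1.26, 0.828 and, without the top row, 1.84 in pics-1, and 0.889 per microRNA read in tofu-6.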
